A study of Mus musculus with 6 samples.

Results

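The SR proteins and the hnRNP proteins are the main families of regulators of pre-mRNA splicing, and the level of their genes was followed through an arsenic exposure in mouse fibroblasts of different Dot1L genotype. DOT1L is the methyltransferase of a lysine on histone H3. The members were the genes of the deposited expression table whose symbol is Srsf followed by digits or Hnrnp followed by letters and digits, pseudogenes left out. This gave 31 genes of the 37224 in the table, 11 of the SR family and 20 of the hnRNP family. The 4 libraries compared came from mouse embryonic fibroblasts on a C57BL/6 background: wild-type cells and cells labelled Dot1L-/-, called null here after that label, each left untreated or given low-dose sodium arsenite. All cells received fresh medium for 24 h, with arsenite listed at 5 and 10 µM beside 0 µM, and the labels do not say which of these doses counts as low. The labels call the cells primary and also speak of a pair of cell lines, so each genotype may stand for a single line. Each group held 1 library. Every difference below is therefore between single libraries, has no replicate check and no p-value, and the condition cannot be told apart from any other difference between those libraries.

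SR proteins carry RNA recognition motifs and a tail rich in arginine and serine. They bind exonic enhancers, where they help the U1 particle and U2AF to mark an exon, and kinases of the SRPK and CLK families control them by phosphorylating the tail. The hnRNP proteins coat nascent transcripts and often silence exons that SR proteins would include, so the balance of the families sets many splicing choices. Genes of both families are known to limit their own output by splicing that sends the transcript to nonsense-mediated decay.

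Levels are RPKM, reads scaled to the length of the gene and to the reads of the library, so genes can be compared with each other within a library. Where 4 values are given for a gene, they follow the order wild type untreated, wild type exposed, null untreated, null exposed. Depth followed treatment: the totals recovered from the values were 62972880, 10833103, 64699847 and 11879632 reads, so untreated libraries were 5.81 and 5.45 times as deep as exposed ones. The 100 genes with most reads took 16.9% and 20.6% of the reads in the controls and 35.4% and 42.1% with arsenite. Dot1l itself stood at 30.4, 5.71, 9.59 and 1.24 RPKM, 3.17 and 4.61 times higher in wild type than in the null library of the same treatment. Dot1l transcripts thus remained in both null libraries, and the level of 9.59 in the untreated null was above the 5.71 of exposed wild type. The labels do not give the deleted part of the gene, and reads over it could not be examined. Of 11 fibroblast markers 8 reached an RPKM of 1, with Thy1 at 0 in all 4 libraries. Their summed level was 2653, 4990, 2275 and 12118 RPKM. The sum hides opposite directions: of the 8 markers 6 were at least 2-fold lower with arsenite in wild type and 1 higher, and 3 and 1 in the null. Of all genes 35.7% were lower and 12.8% higher in wild type, and 37.1% and 15.2% in the null. Of 9 leukocyte markers 2 reached an RPKM of 1, and of the epithelial, endothelial, skeletal muscle and neural lists 1 each. The neural and glial list summed to 62.5, 18.8, 21.2 and 16.2 RPKM. The highest sum of the other lists outside fibroblasts was 9.58, of the leukocyte list in the exposed null library. The part of these differences in the results below was not tested.

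Nearly all members were well expressed. An RPKM of at least 1 in any library, the filter used throughout, was met by 30 of the 31 members and by 12588 genes in all. The exception was Srsf12, with 4, 0, 32 and 3 reads. A count of 0 allows up to 3 reads (a one-sided 95% limit), and no arsenite ratio is given for it. The other 30 had between 107 reads (Hnrnpll, null with arsenite) and 67102 reads (Hnrnpa3, wild-type control), so counting error was small beside most differences. Intervals in parentheses are 95% counting intervals of a ratio of reads, which cover neither the spread between cultures nor that between library preparations.

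**Figure D1:**
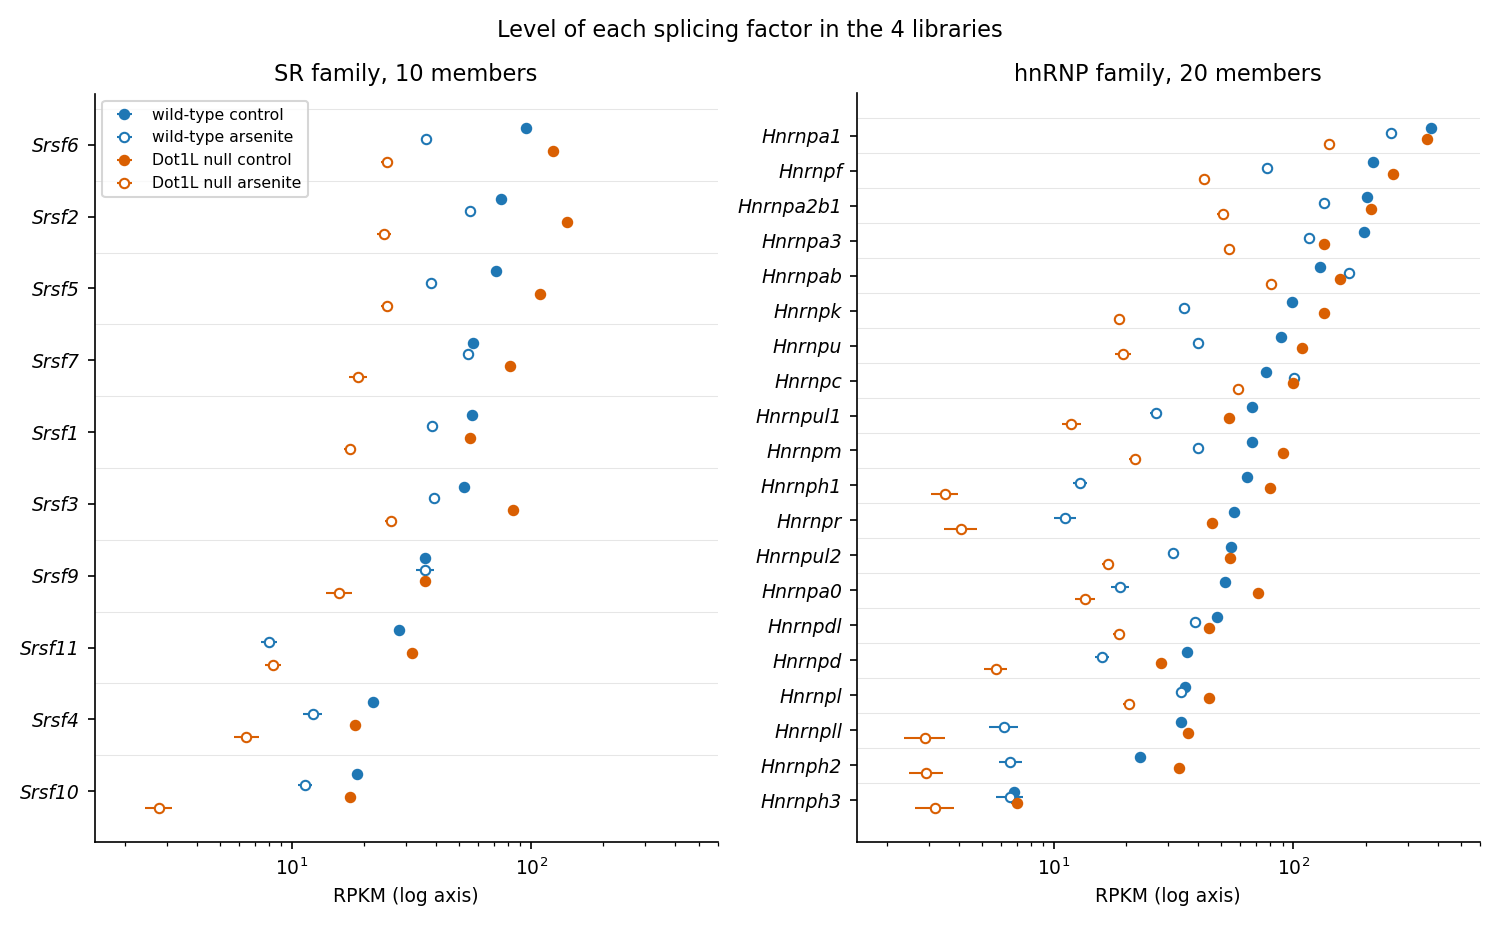
RPKM of each member (log axis) in the wild-type (blue) and Dot1L null (orange) libraries, untreated (filled) and with arsenite (open), for 10 SR and 20 hnRNP genes; bars are 95% counting intervals. The null library with arsenite is the lowest of the 4 for every gene except Srsf11, which has 8.02 RPKM in wild type with arsenite and 8.33 in the null with arsenite.

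Among the hnRNP genes Hnrnpa1, whose protein binds exonic and intronic silencers, was the most abundant in each of the 4 libraries, at 374, 255, 359.9 and 141 RPKM. It alone made up 19.4%, 21.7%, 17.5% and 23.8% of the summed RPKM of its family. Behind it the order differed between control and arsenite libraries. In both controls Hnrnpf and Hnrnpa2b1 came next, and with arsenite Hnrnpab took the second place in both genotypes. Hnrnpc, whose protein binds uridine tracts, held the eighth place in both controls, the fifth in wild type with arsenite and the third in the null with arsenite. At the bottom Hnrnph3 had 6.83, 6.53, 6.98 and 3.18 RPKM, and with arsenite it could not be ordered against Hnrnph2 and Hnrnpll within counting error.

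The SR family was more even, and its leader differed between libraries. Srsf6 led in the wild-type control with 94.9 RPKM, ahead of Srsf2 with 74.5 and Srsf5 with 71.2, and the counting intervals of these levels did not overlap. In wild type with arsenite Srsf2 and Srsf7, at 55.6 and 54.6 RPKM, shared the lead within counting error. In the null control Srsf2 was first with 141 RPKM and 20.3% of the family. With arsenite in the null Srsf3, Srsf5, Srsf6 and Srsf2 lay between 24.4 and 25.9 RPKM with overlapping intervals. Of the 9 pairs of neighbours in the order, 1 overlapped in untreated wild type and 2 in the untreated null, against 6 and 5 in the shallower exposed libraries.

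With arsenite in wild-type cells most members of both families were lower, the SR family by a median close to that of all genes. The median log2 fold, on the scale log2(RPKM + 1) that understates differences of low genes, was -0.61 over 10 SR genes and -0.96 over 20 hnRNP genes, against -0.56 over all genes. At least 2-fold lower were 2 SR and 10 hnRNP genes, where 35.7% of all genes were. None of the 30 was at least 2-fold higher, where 12.8% of all genes were. Relative to the all-gene median, 5 of 10 SR and 14 of 20 hnRNP genes were lower. On that scale 1 SR and 4 hnRNP genes were 2-fold lower, where 2437 of 12588 genes were. Fewer cells of a kind and less RNA per cell cannot be told apart in such bulk libraries.

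The SR genes that were more than 2-fold lower in wild type were Srsf11 and Srsf6. Srsf11, which encodes a U2AF-associated SR-related protein, had 28.2 RPKM in the control and 8.02 with arsenite, 3.51-fold lower (3.24 to 3.81). Srsf6, known for its part in the splicing of tau transcripts, had 94.9 and 36.4 RPKM, 2.61-fold lower (2.47 to 2.75). Srsf1, a founding member also called ASF/SF2, had 56.8 and 38.5 RPKM, and Srsf3 had 52.5 and 39.0. Srsf7, which also acts in mRNA export, had 57.2 and 54.6 RPKM, and Srsf9 had 36.1 in both libraries. For Srsf7 and Srsf9 the interval of the ratio held 1.

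The hnRNP genes ranged more widely in wild type, from 5.49-fold lower to 1.32-fold higher. Hnrnpll, a regulator of CD45 splicing in lymphocytes, had 33.8 RPKM in the control and 6.16 with arsenite, 5.49-fold lower (4.78 to 6.33). Hnrnpr had 56.5 and 11.1 RPKM, 5.08-fold lower (4.59 to 5.65). Hnrnph1, whose protein binds runs of guanine, had 63.8 and 12.9 RPKM, 4.96-fold lower (4.63 to 5.33). These 3 were the lowest members, and their close relatives were not all alike: Hnrnph2 was 3.48-fold lower (3.11 to 3.91), whereas Hnrnpl, the relative of Hnrnpll, had 35.3 and 33.9 RPKM.

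Hnrnpab and Hnrnpc were the only members whose interval lay above 1 in wild type with arsenite. Hnrnpab, whose protein binds AU-rich RNA, stood at 129 RPKM untreated and at 171 exposed, 1.32-fold higher (1.28 to 1.36). Hnrnpc had 76.4 and 100.3 RPKM, 1.31-fold higher (1.26 to 1.36). Neither reached 2-fold. For Hnrnph3 and Hnrnpl the interval held 1, and for the other 16 it lay below 1.

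In Dot1L null cells the same exposure went with lower levels of every expressed member. All 10 SR genes and 17 of 20 hnRNP genes were at least 2-fold lower, where 37.1% of all genes were, and none was 2-fold higher, where 15.2% were. The medians were -1.93 for the SR and -2.07 for the hnRNP family, against -0.53 over all genes, and all 30 members lay below that all-gene median. These counts are on the log2(RPKM + 1) scale, on which Hnrnpab, Hnrnph3 and Hnrnpc were within 2-fold. As a ratio of reads Hnrnph3 was 2.20-fold lower (1.82 to 2.67). With a pseudocount of 0.1 the count was 18 hnRNP genes, where 5684 of 12588 genes were lower. Centred on the all-gene median, 8 SR and 13 hnRNP genes were 2-fold lower, where 2997 of 12588 genes were. The summed level of the SR family was 696 RPKM in the null control and 169.9 with arsenite, 4.10-fold lower. For the hnRNP family it was 2051 and 590.3 RPKM, 3.47-fold lower. In wild type the sums were 512 and 329.9 RPKM for SR genes and 1929 and 1178 for hnRNP genes, 1.55-fold and 1.64-fold lower. Both families together took 0.874%, 0.510%, 0.980% and 0.260% of all reads.

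Hnrnph1 had the lowest log2 fold of all members in the null, -4.16, at percentile 0.405 of all genes. It had 79.6 RPKM in the control, from 30074 reads, and 3.50 with arsenite, from 243 reads, 22.7-fold lower (20.0 to 25.9). The next were Hnrnpll with 36.4 and 2.89 RPKM, Hnrnpr with 45.8 and 4.08, and Hnrnph2 with 33.1 and 2.93. Each of these 3 was between 11.2-fold and 12.6-fold lower. Hnrnpk, whose protein binds cytidine-rich RNA and DNA, had 134 and 18.8 RPKM and was 7.16-fold lower (6.77 to 7.58). Hnrnpf, from the same subfamily as Hnrnph1, had 259.7 and 42.4 RPKM and was 6.12-fold lower (5.82 to 6.43). The intervals of Hnrnpk and Hnrnpf did not meet those of the 4 lowest genes.

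Among SR genes in the null Srsf10 and Srsf2 had the largest ratios. Srsf10, whose protein turns into a repressor of splicing when dephosphorylated under heat shock, had 17.4 RPKM in the control and 2.79 with arsenite, 6.25-fold lower (5.49 to 7.16). Srsf2, also called SC35 and a marker of nuclear speckles, had 141 and 24.4 RPKM, 5.79-fold lower (5.41 to 6.21). At the other end Srsf9 had 35.9 and 15.7 RPKM, 2.29-fold lower (2.01 to 2.61). The SR genes thus spanned 2.29-fold to 6.25-fold and the hnRNP genes 1.70-fold to 22.7-fold.

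The remaining members lay between these ends, each lowest in the exposed null library. Hnrnpd, also called AUF1 and a factor of AU-rich mRNA decay, had 36.0, 15.8, 28.03 and 5.71 RPKM. Its relative Hnrnpdl had 47.8, 38.9, 44.4 and 18.7 RPKM. Exposed levels were below untreated ones in both genotypes for both genes, by more for Hnrnpd. Hnrnpm had 67.2, 40.0, 90.0 and 21.8 RPKM. The single-exon gene Hnrnpa0 had 51.6, 18.9, 71.0 and 13.5 RPKM. Both were higher in the untreated null than in untreated wild type. Hnrnpu, whose protein binds chromatin as scaffold attachment factor A, has relatives in Hnrnpul1 and Hnrnpul2. Hnrnpul1 had 67.4, 26.6, 53.7 and 11.8 RPKM. Hnrnpul2 had 55.0, 31.4, 54.3 and 16.9 RPKM. Of these relatives Hnrnpul1 was 2-fold lower with arsenite in both genotypes, and Hnrnpul2 only in the null. Srsf4 had 21.9, 12.2, 18.3 and 6.45 RPKM. Srsf5, a close relative of Srsf4 and Srsf6, had 71.2, 38.1, 108 and 25.1 RPKM. Both were less than 2-fold lower in wild type and more than 2-fold lower in the null.

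The promoter windows of Hnrnpc and Hnrnpab are shown because they were the members that were higher with arsenite in wild type. Each is the 250 bases before the most upstream start that the RefSeq promoter table lists for the gene in GRCm38.p6, 5′ to 3′ on the strand of the gene. Capitals mark the CCAAT box of NF-Y and the CCGGAA core of ETS factors, on either strand. Hnrnpc lies at chr14:52104022-52104271 (minus strand), with its last 18 bases inside the annotated span of the gene, and Hnrnpab at chr11:51606882-51607131 (minus), outside its span.
Hnrnpc: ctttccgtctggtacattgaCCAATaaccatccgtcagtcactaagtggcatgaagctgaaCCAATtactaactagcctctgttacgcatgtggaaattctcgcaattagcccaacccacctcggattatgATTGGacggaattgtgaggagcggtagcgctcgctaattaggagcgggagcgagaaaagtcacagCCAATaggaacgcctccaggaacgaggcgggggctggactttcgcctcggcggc
Hnrnpab: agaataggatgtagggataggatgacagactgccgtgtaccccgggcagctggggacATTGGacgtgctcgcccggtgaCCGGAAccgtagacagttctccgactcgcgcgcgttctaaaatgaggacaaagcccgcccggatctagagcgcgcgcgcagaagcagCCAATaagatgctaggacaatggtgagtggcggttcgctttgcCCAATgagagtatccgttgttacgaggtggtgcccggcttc
The window of Hnrnpc held 4 matches to CCAAT and none to CCGGAA, and that of Hnrnpab held 3 and 1.

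Such a window was found for 29 of the 31 members, and 5 motifs were searched in it on both strands. Annotated spans can reach beyond the listed start: 8 windows lay outside the span of their gene, 10 partly inside and 11 wholly inside, those of Srsf2 and Hnrnph1 among the last. CCAAT was present in 12 of 18 hnRNP and 3 of 11 SR windows, 66.7% and 27.3%, against 37.3% of the genes past the filter that had a window and 34.5% of all genes. CCGGAA was present in 5 of 18 hnRNP and 6 of 11 SR windows, against 23.6% and 12.3%. The GGGCGG box of SP1 and KLF factors was found in 23 of 29 members (79.3%), against 61.0% and 33.0%. TGACGT, the core of the CREB and ATF1 site, was found in 7 of 29 (24.1%), against 10.6% and 6.52%. TGACNNNGC, the element of NRF2, was found in 5 of 29 (17.2%), against 11.9% and 10.1%. Matches of different motifs may share bases, TGACGT and TGACNNNGC among them. The windows also differed in base composition. Their median share of G and C was 68% for SR and 60.6% for hnRNP genes, against 60.4% and 52%. The motif shares were not adjusted for it. A match is a description of letters, not of binding.

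The arsenite folds of the genotypes come from separate libraries. The null fold was the lower in 30 of 30 members, where it was the lower in 53.0% of all genes. Of the hnRNP genes 10 of 20 were at least 2-fold lower in both genotypes and of the SR genes 2 of 10, where 26.3% of all genes were. None was 2-fold higher in both, where 8.4% of all genes were. Across genes, which are not replicates and share these libraries, the folds of the genotypes had a Pearson correlation of 0.94 over 20 hnRNP genes and 0.25 over 10 SR genes, against 0.79 over all genes. The hnRNP genes thus kept nearly the same order in both genotypes, and the SR genes did not. The SR folds also had a narrower range, -1.69 to 0.00 in wild type and -2.49 to -1.14 in the null. The hnRNP folds ran from -2.28 to 0.40 and from -4.16 to -0.76. The part of this in the correlations was not tested.

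**Figure D2:**
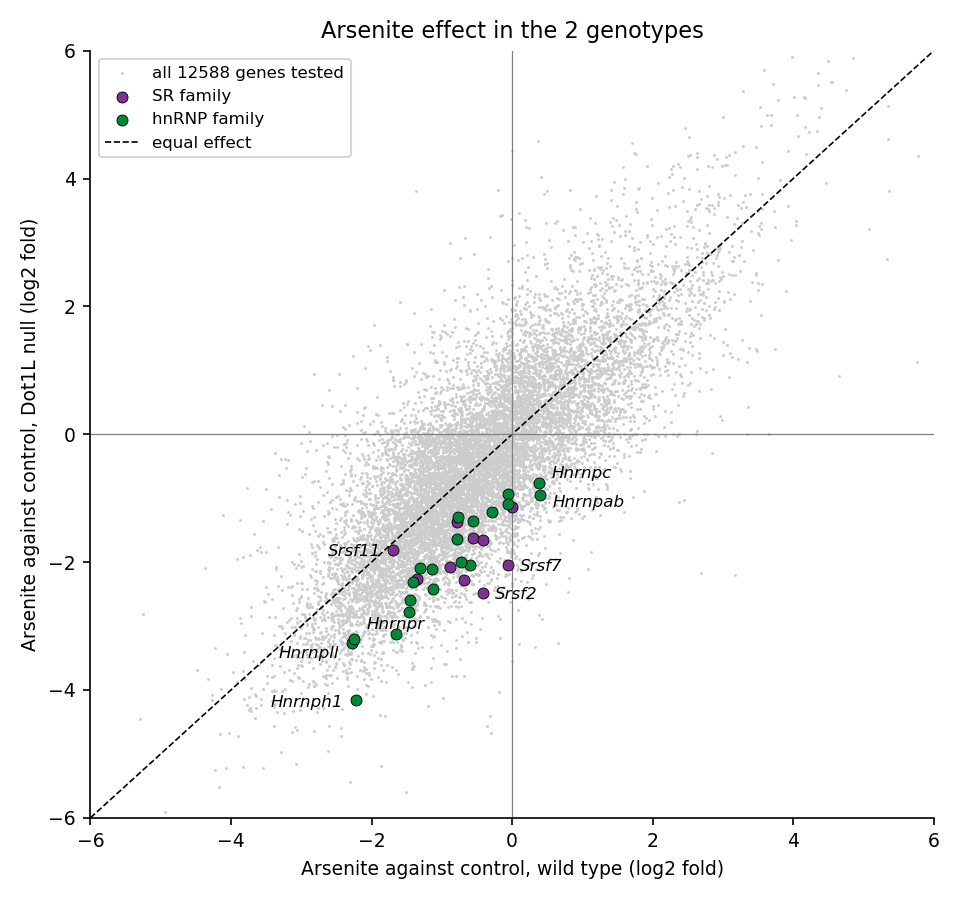
Log2 fold with arsenite in wild type (x axis) and in Dot1L null cells (y axis) for SR (purple) and hnRNP (green) members over all genes tested (grey, 7 of them outside the axes). All 30 members lie below the dashed line of equal effect, Srsf11 closest to it and Srsf2, Srsf7 and Hnrnph1 farthest.

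The difference of the folds, null minus wild type, was at most -1 in 7 of 10 SR and 10 of 20 hnRNP genes, where 12.8% of all genes were. Its median was -1.16 for SR and -1.01 for hnRNP genes, against -0.06 over all genes. Other splicing lists, described below, also had medians below 0. For the core spliceosome it was -0.86 (26 of 27 genes below 0, 11 at most -1) and for SR kinases and import -0.65 (8 of 8, 2). For SR-related proteins it was -0.62 (13 of 16, 5), for other splicing regulators -0.58 (19 of 25, 7) and for nonsense-mediated decay -0.26 (6 of 10, 0). The difference was not tested against replicate error. Of the members Srsf2 (-2.07), Srsf7 (-1.98) and Hnrnph1 (-1.94) had the largest differences. Srsf7 was 57.2 and 54.6 RPKM in wild type without and with arsenite, and 81.2 and 18.9 in the null. At the other end Srsf11 had a difference of -0.12: its 28.2 and 8.02 RPKM in wild type stood beside 31.8 and 8.33 in the null. The exposed levels of Srsf11 in the genotypes could not be told apart within counting error.

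Without arsenite most members were slightly higher in the null library, by less than 2-fold. These libraries also serve as controls of the arsenite comparisons, so the sets of values are not independent. None of the 30 was 2-fold away from wild type, where 6.45% of all genes were higher and 14.7% lower. The median was 0.27 for SR and 0.19 for hnRNP genes, against -0.17 over all genes. The interval of the ratio lay above 1 in 6 SR and 12 hnRNP genes and below 1 in 3 and 6. Srsf2 came closest to 2-fold, at 74.5 RPKM in wild type and 141 in the null, 1.89-fold higher (1.85 to 1.93). Srsf3, the smallest SR protein, was 1.59-fold higher (1.56 to 1.62) and Srsf5 1.52-fold higher (1.49 to 1.55). Hnrnpa3 was the lowest, at 197 and 134 RPKM, 1.48-fold lower (1.46 to 1.49). Centred on the median of all genes, 1 SR gene, Srsf2, was 2-fold higher, where 1109 of 12588 genes were. Srsf12 had 4 and 32 reads, 7.79 times as many in the null for equal depth (2.76 to 30.3), at an RPKM under 1 in both.

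Between the exposed libraries, which share none with the untreated ones, most members were lower in the null. Each of the 20 hnRNP genes and 9 of 10 SR genes were lower in the null than in wild type, all with an interval below 1. At least 2-fold lower were 5 SR and 9 hnRNP genes, where 16.9% of all genes were, and none was 2-fold higher, where 8.75% were. These counts were 2 and 3 when centred on the all-gene median, where 1213 of 12588 genes were lower. They were also 2 and 3 with the length trend removed, where 1094 of 12155 genes with a length were lower. The counts of 5 and 9 are on the log2(RPKM + 1) scale. With a pseudocount of 0.1 there were 12 hnRNP genes, where 3596 of 12588 genes were lower. As ratios of reads Hnrnph2, Hnrnpll and Hnrnph3 were 2.24-fold, 2.13-fold and 2.05-fold lower. The medians were -0.96 and -0.91, against -0.28 over all genes. Srsf10 was lowest, at 11.3 RPKM in wild type and 2.79 in the null, 4.07-fold lower (3.52 to 4.73). Hnrnph1 followed at 12.9 and 3.50 RPKM, 3.67-fold lower (3.18 to 4.26), then Srsf7 at 54.6 and 18.9, 2.88-fold lower (2.60 to 3.20). Hnrnpa2b1, whose protein also guides RNAs in transport, had 135 and 50.6 RPKM, 2.66-fold lower (2.49 to 2.85). Srsf11 was the exception, with 1.04 times the wild-type level (0.93 to 1.16).

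**Figure D3:**
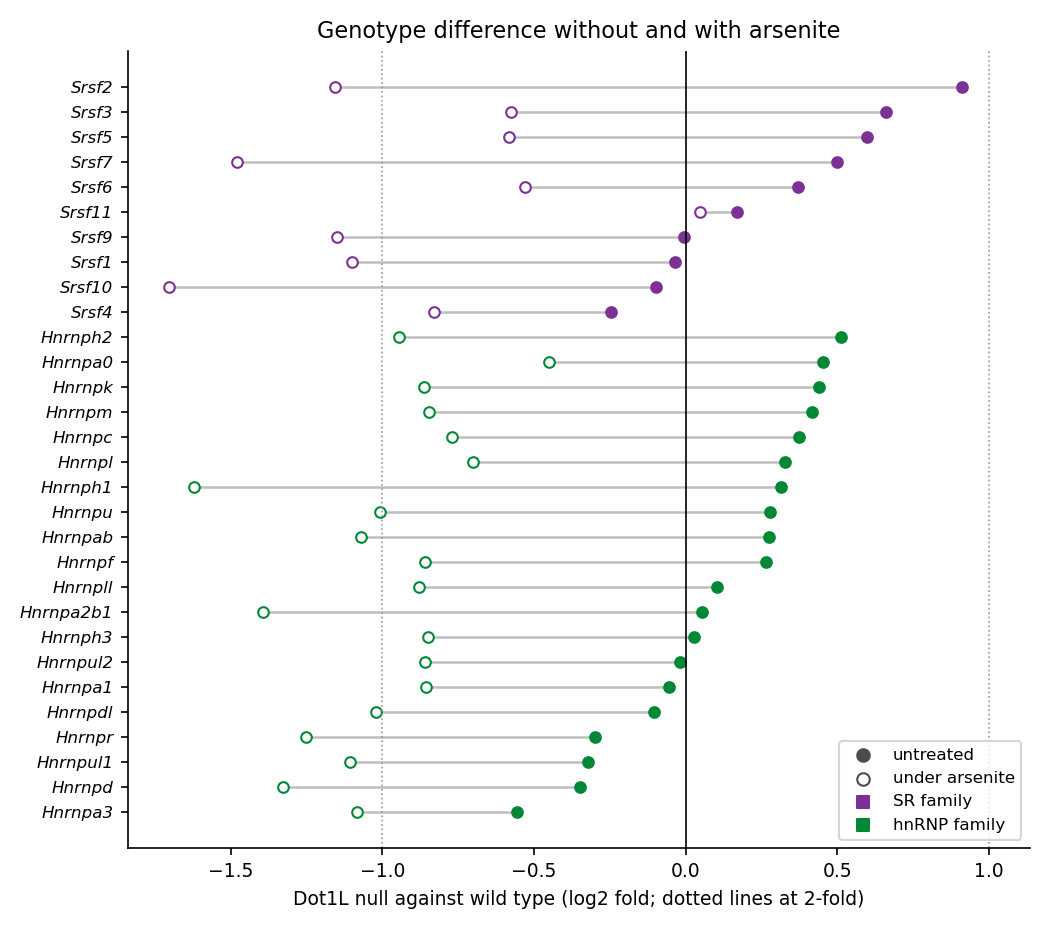
Log2 fold of Dot1L null against wild type for each member, untreated (filled) and under arsenite (open), SR genes in purple and hnRNP genes in green, with dotted lines at 2-fold. No filled point passes a dotted line. The open points of 5 SR and 9 hnRNP genes lie at or beyond the lower one, where 16.9% of all genes do. Centred on the all-gene median, these counts become 2 and 3, where 1213 of 12588 genes are.

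The length of a gene went with its arsenite fold across the whole table. Lengths were recovered from the RPKM values, and over 11660 genes the log2 fold had a slope of -0.70 per doubling of length in wild type and -0.72 in the null. Genes of 500 to under 1000 bases had medians of 1.27 and 1.28, and genes of at least 12000 bases medians of -1.55 and -1.54. Members measured 1360 (Srsf9) to 7135 bases (Srsf11), with a median of 3692 beside 3514 for all genes of the trend. Hnrnpa0, which has no introns, gave a recovered length of 2678 bases, equal to its annotated span.

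Removing the trend on length also brought the all-gene medians to -0.04 in wild type and -0.01 in the null. Centring on the all-gene median alone gave SR and hnRNP medians of -0.0550 and -0.40 in wild type and -1.39 and -1.53 in the null. With the trend taken away, the medians of both families were nearer to 0 in both genotypes than as deposited. In wild type they became -0.04 for SR and -0.47 for hnRNP genes. No SR gene and 4 hnRNP genes, Hnrnpll, Hnrnpr, Hnrnph1 and Hnrnpa0, were then 2-fold lower, and Hnrnpl was 2-fold higher at 1.10. Of 12155 genes past the filter with a recovered length of at least 200 bases, 1999 were lower and 1833 higher in wild type. In the null the medians were -1.14 and -1.38. There 5 SR and 13 hnRNP genes were 2-fold lower, where 2636 of the 12155 genes were lower and 2361 higher. Hnrnpl then stood at 0.08, the only member above 0. Within the members the families differed in how length went with the fold. Over 10 SR genes the Pearson correlation was -0.64 in wild type and -0.30 in the null, over 20 hnRNP genes -0.15 in both, and over the 11660 genes -0.58 and -0.52.

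**Figure D4:**
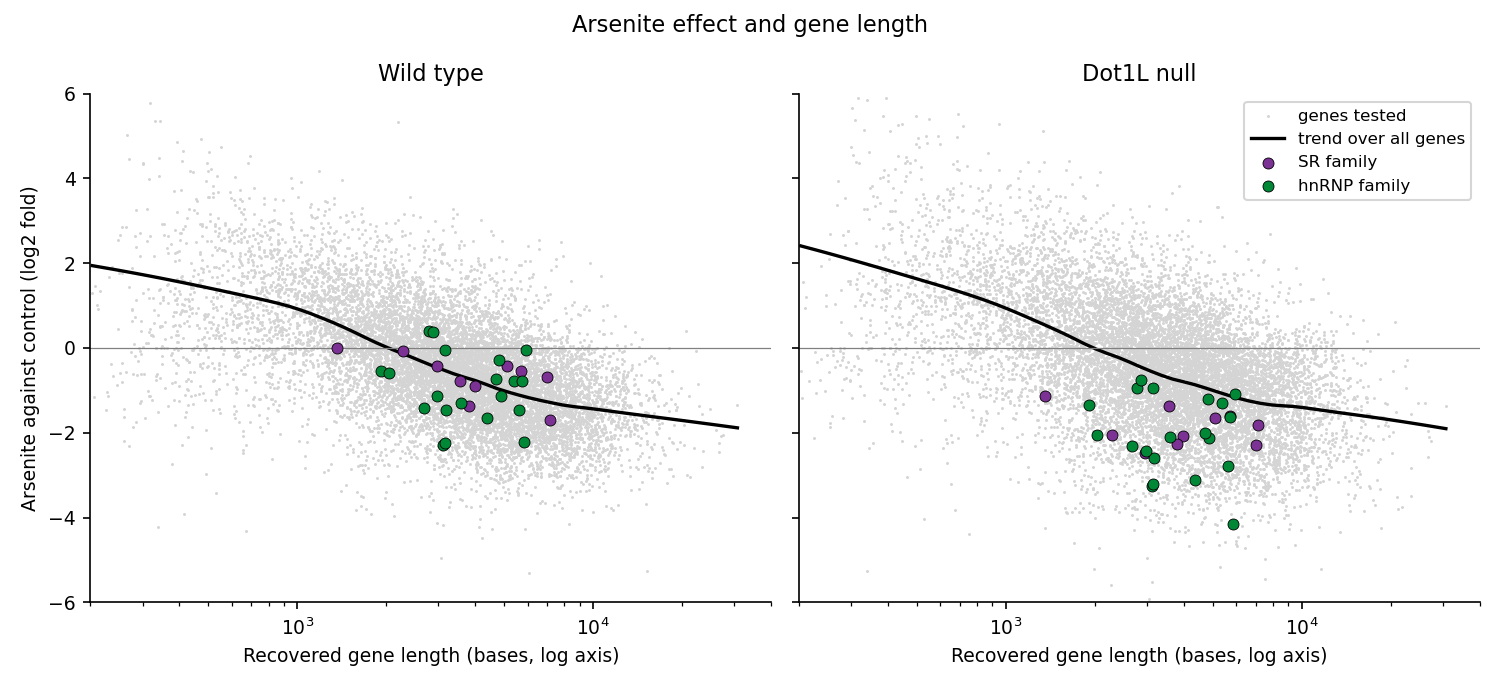
Log2 fold with arsenite against recovered gene length (bases, log axis) in wild type (left) and Dot1L null cells (right), with all genes in grey, their trend as a black line and members in purple (SR) and green (hnRNP). In wild type members lie on both sides of the line, and in the null all but Hnrnpl lie below it.

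Set side by side, the medians of the families lay closer to each other than the arsenite medians of either family in the genotypes. The hnRNP median was 0.35 below the SR median with arsenite in wild type (-0.96 and -0.61) and 0.14 below it in the null. Untreated and under arsenite, the genotype medians of the families lay within 0.08 and 0.05 of each other. The ranges overlapped in every comparison: with arsenite in wild type SR genes ran from -1.69 to 0.00 and hnRNP genes from -2.28 to 0.40. The ratio of the summed hnRNP to the summed SR level was 3.77, 3.57, 2.95 and 3.47 in the order above. It was lowest in the untreated null library, where the SR sum was 1.36 times and the hnRNP sum 1.06 times that of untreated wild type.

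Other splicing genes were read from 5 lists, beside the shares of all genes above. Their counts with the length trend removed stand beside the all-gene counts without the trend above. Of 8 expressed kinases and import factors of SR proteins, 3 were 2-fold lower with arsenite in wild type and 5 in the null, with none higher. These genes are long, and with the length trend removed 3 were higher and 1 lower in wild type (median 0.61), and 1 higher and 2 lower in the null (median -0.03). Prpf4b, a kinase of the tri-snRNP, had 25.9 and 2.19 RPKM in wild type and 23.3 and 1.21 in the null. Srpk1, the main cytoplasmic SR kinase, had 11.1 and 21.7 RPKM in wild type and 14.0 and 11.9 in the null. Of 16 SR-related proteins 9 and 11 were 2-fold lower (medians -1.21 and -1.70), Scaf8 most, with 32.2 and 2.98 RPKM in wild type and 32.2 and 1.63 in the null. With the trend removed 2 and 5 were lower, 1 and 0 higher, and the medians were 0.06 and -0.47. Pnn, which encodes the exon junction factor pinin, had 69.6 and 16.4 RPKM in wild type and 40.5 and 5.41 in the null.

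Of 25 other splicing regulators 11 were lower in wild type and 17 in the null, with none higher (medians -0.92 and -1.67). With the trend removed 3 and 11 were lower, 3 and 1 higher, and the medians were -0.08 and -0.55. Qk, which encodes the quaking protein, had 23.2 and 1.54 RPKM in wild type and 21.2 and 0.682 in the null, at a length of 9879 bases, and its log2 fold in wild type was -3.25 as deposited and -1.82 without the trend. Pcbp1, which binds cytidine-rich RNA as Hnrnpk does, had 179.6 and 48.6 RPKM in wild type and 339 and 22.4 in the null, at a length of 1673 bases. Of 10 genes of nonsense-mediated decay 5 and 7 were lower and none was higher (medians -1.04 and -1.40). With the trend removed 2 and 3 were lower, 0 and 1 higher, and the medians were -0.22 and -0.51. Smg1, the kinase of that pathway, had 13.4 and 0.735 RPKM in wild type, 18.2-fold lower (15.6 to 21.3), and was 70.9-fold lower in the null (54.7 to 93.6).

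The core of the spliceosome was split. Of 27 genes 12 were 2-fold higher and 5 lower with arsenite in wild type (median 0.54), and 4 were higher and 10 lower in the null (median -0.05). With the trend removed, over 26 genes with a length, 9 were higher and 3 lower in wild type and 4 and 8 in the null. The medians were then 0.55 and -0.45, with 18 of the 26 genes below 0 in the null. Among the higher genes were small Sm proteins, which form the ring around spliceosomal RNAs, and of these Snrpd1 had 58.0 and 559.9 RPKM in wild type and 68.8 and 411 in the null. Among the lower was Prpf8, the central scaffold of the active site, with 81.7 and 15.4 RPKM in wild type and 117 and 12.5 in the null. These genes also differ in length, Snrpd1 at 837 bases and Prpf8 at 7461. With the length trend removed their log2 folds in the null were 1.42 and -1.81.

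**Figure D5:**
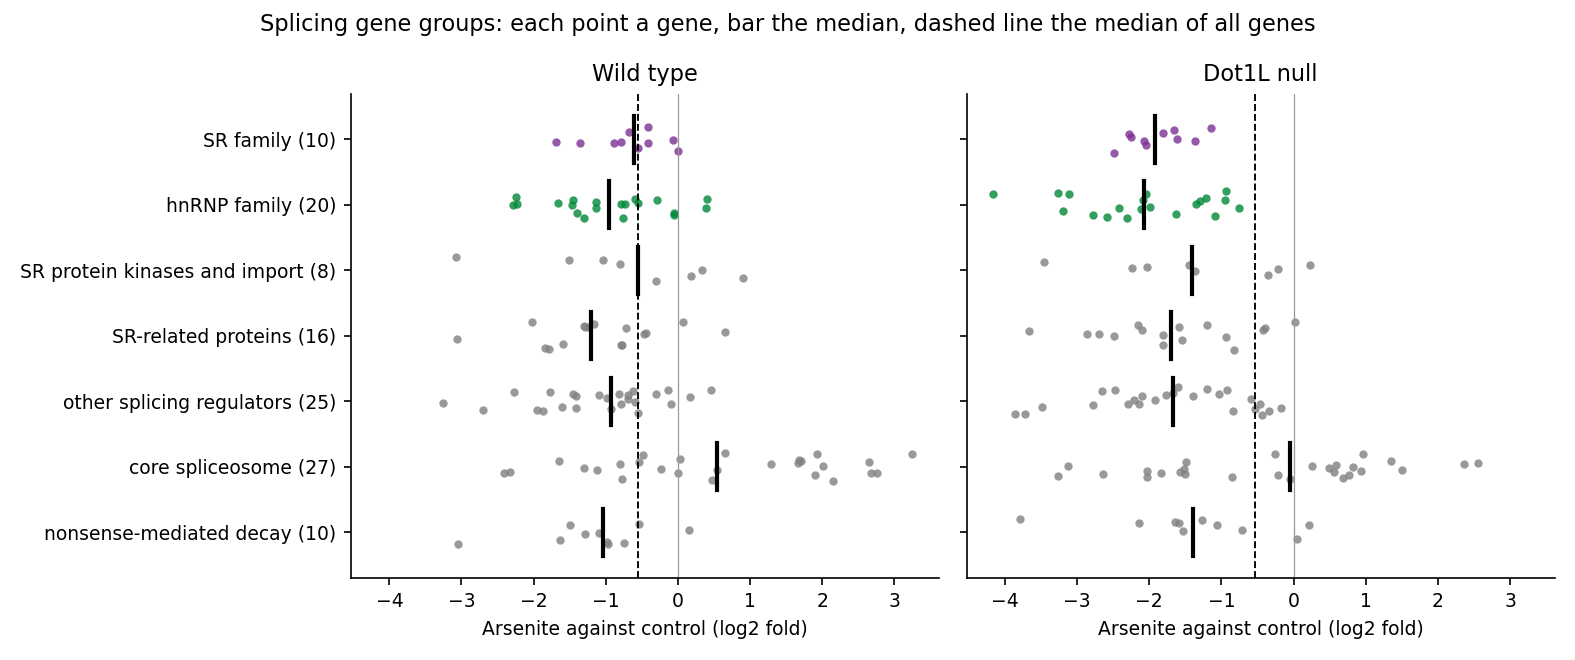
Log2 fold with arsenite of the SR and hnRNP genes and of 5 other lists of splicing genes (expressed members in parentheses) in wild type (left) and Dot1L null cells (right); bars are list medians and the dashed line is the median of all genes. In the null the SR and hnRNP medians, -1.93 and -2.07, are the lowest of the 7 groups, and the core spliceosome is spread to both sides.

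Reads of neighbouring or similar genes can enter these values. The spans of 10 of the 31 members overlap another protein-coding gene in RefSeq, and whether the counting used strand is not given in the sources used here. Cox20, which overlaps Hnrnpu, had 3.13, 15.6, 6.37 and 34.7 RPKM, while Hnrnpu had 89.0, 40.1, 108 and 19.4. Mfsd11, which overlaps Srsf2, had 9.56, 12.1, 7.98 and 3.88 RPKM. Hnrnph1 and Hnrnph2, as Hnrnpd and Hnrnpdl, are similar in sequence, so a split of reads between such pairs is uncertain. The named pseudogenes Hnrnpa1l2-ps and Hnrnpa1l2-ps2 had at most 2 reads in any library.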

How the data were processed

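RNA was sequenced from 4 libraries, 1 per group, and 2 ChIP-seq libraries are left out. The libraries, per the labels' protocols, were depleted of ribosomal RNA, and a strand-specific protocol was used, although the molecule label reads polyA RNA. TopHat, HTSeq, Bowtie and deepTools with build mm10 are named in the submitters' processing notes, while their versions and roles, the annotation and the strand setting are not stated there. The authors deposited RPKM values for 37224 Ensembl IDs in 4 columns, of which 35449 matched a symbol.

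Reads were recovered from the deposited RPKM: the most frequent inverse of RPKM times length over small RNA genes gave each library's total, and the shortest length that made all values of a gene whole (relative tolerance 1e-11) gave its length and reads. This was found for all 21617 genes above 0; of 529 small RNA genes 362 gave their annotated span. Some lengths may be a whole fraction of the true one. Gene length and reads served for intervals and for the length trend, never for a count model.

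Differences are log2((RPKM + 1)/(RPKM + 1)) over the 12588 genes that reached RPKM 1 in at least 1 library, called at 2-fold. Ratios of reads carry exact 95% conditional intervals (Clopper-Pearson), and levels exact Poisson ones. They cover counting error only, and reads without molecular identifiers are not independent molecules. The trend is a lowess (0.3 of genes) of log2 fold on log2 length over 11660 genes of at least 200 bases with reads in all libraries. Promoter windows and positions are RefSeq, GRCm38.p6. The procedures were also run on simulated counts. Small RNA lengths were set to their annotated spans there, so that run cannot check the use of those spans for the real totals. Python 3.11.15, pandas 2.3.3, scipy 1.17.1 and statsmodels 0.14.6 were used.

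All members are described. The genes named from each other list are among the 4 with the largest absolute fold in either arsenite comparison. The members, lists and promoter windows shown were chosen with earlier results of these data known. The 7 alternatives were other pseudocounts (0.1 and 5), no filter or one at RPKM 5, centring, scaling to the 75th percentile and removal of the length trend. Rows without a symbol (1775) stayed in the tests.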

Additional observations from a re-analysis of the deposited data

Results flagged for a closer look

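With 1 library per group no sample could be set against others of its group. Members whose arsenite fold had opposite signs in the genotypes were picked out; the difference was not tested. Hnrnpab had a log2 fold of 0.40 in wild type and -0.95 in the null, a difference of -1.35. Hnrnpc had 0.39 and -0.76, a difference of -1.14. Srsf9 had 0.00 and -1.14, a difference of -1.14, and its wild-type ratio of 1.00 had an interval of 0.91 to 1.10, so its sign in wild type is within counting error. The pick depends on the scale. Without the length trend Srsf9 had -0.56 and -1.68, both below 0, while Hnrnpab (0.78 and -0.54) and Hnrnpc (0.81 and -0.30) kept opposite signs. Centred on the all-gene median, further members had opposite signs, among them Srsf7 (0.49 and -1.51) and Hnrnpl (0.50 and -0.55).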

How the results depend on the processing

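No paired analysis was possible because each group held 1 library, and for the same reason no library could be left out. Medians of log2 folds are given for arsenite in wild type, arsenite in the null, null against wild type untreated and the same under arsenite, in this order. Centred on the median of all genes, SR medians were -0.0550, -1.39, 0.44 and -0.68, and hnRNP medians -0.40, -1.53, 0.35 and -0.63. Scaled to the 75th percentile, they were -0.13, -1.33, 0.41 and -0.73, and -0.46, -1.46, 0.33 and -0.72. With the length trend removed, they were -0.0412, -1.14, 0.50 and -0.61, and -0.47, -1.38, 0.40 and -0.57, and the hnRNP minus SR median was -0.43 and -0.25 with arsenite in wild type and the null.

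With a pseudocount of 5 the SR medians were -0.52 and -1.52 with arsenite and -0.77 between exposed libraries, the hnRNP medians -0.86 and -1.81 with arsenite, and the hnRNP minus SR median in the null -0.29. With a pseudocount of 0.1 the hnRNP median between exposed libraries was -1.05. Without a filter, which adds Srsf12, SR medians were -1.81 with arsenite in the null, 0.18 untreated and -0.83 under arsenite, and the hnRNP minus SR median was -0.26, 0.00370 and -0.0850. Each family median kept its sign under all 7 alternatives.

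Members 2-fold lower with arsenite in wild type numbered 1 SR and 4 hnRNP under centring and under 75th percentile scaling, and 0 and 4 without the length trend, with 1 hnRNP gene then higher. In the null, 5 SR genes were lower without the trend. Of 12588 genes 2437 were lower in wild type under centring and 2963 under 75th percentile scaling. Without the trend 1999 of 12155 genes were lower in wild type and 2636 in the null. Between exposed libraries 2 SR and 3 hnRNP genes were lower under centring and without the trend, 2 and 4 under 75th percentile scaling, and 3 and 4 with a pseudocount of 5. Over all genes 1213 were lower there under centring, 1094 without the trend, 1630 under 75th percentile scaling and 754 with a pseudocount of 5. Untreated, 1 SR gene was 2-fold higher under centring, under 75th percentile scaling and without the trend, where 1109, 933 and 1110 of all genes were. Hnrnpl with arsenite in the null changed sign to 0.0798 without the trend. With arsenite in wild type more members changed sign: 13 of 30 were above 0 without the trend, against 3 as deposited. Over all genes, the share of calls that were higher with arsenite was 26.4% in wild type and 29.0% in the null, and 52.8% and 49.6% when centred, 43.9% and 46.5% when scaled, and 47.8% and 47.2% without the trend. Between genotypes it was 30.5% untreated and 34.1% under arsenite, and 43.9% and 57.1% when centred, 39.2% and 48.6% when scaled, and 45.5% and 58.0% without the trend. All-gene calls also differed with the pseudocount: with arsenite in wild type 1609 higher and 4495 lower became 1093 and 2287 at a pseudocount of 5, and 2004 and 5462 at 0.1. Srsf12 had too few reads for an arsenite comparison, and among the 30 members past the filter depth limits Hnrnpll most, at 107 reads in the exposed null library.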
